A study of Mus musculus with 21 samples.

Results

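Inhibin alpha (Inha), the AMH receptor (Amhr2), desert hedgehog (Dhh), the hedgehog receptor patched 1 (Ptch1) and Wnt4 are 5 genes by which the supporting and interstitial cells of the gonads signal. They were found by symbol among the 9604 probes, of 16128 on the array, that the platform annotation assigns to exactly 1 gene, and are 5 of the 7117 genes so named. Each had 1 probe, and all 5 were among the 4465 genes tested. The probes of Inha, Dhh and Wnt4 had a value on all 21 arrays, that of Amhr2 on 19 and that of Ptch1 on 18.

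Inhibin is a dimer of the alpha subunit with an activin beta subunit; granulosa cells of the ovary and Sertoli cells of the testis secrete it, and it restrains the release of FSH by the pituitary. Amhr2 is the type II receptor through which anti-Müllerian hormone acts on the Müllerian duct and on gonadal somatic cells. Sertoli cells send Dhh to Leydig and peritubular cells, and granulosa cells send hedgehog ligands to theca cells; Ptch1 receives the signal and is itself a transcriptional target of the pathway. Wnt4 is a secreted ligand that the developing ovary requires and that granulosa and stromal cells express.

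The samples were total RNA of whole mouse gonads, set against each other in the 2 channels of an array. Wild type ovary was compared with wild type testis on 4 arrays, wild type testis with a reference on 4, and wild type ovary with the same reference on 5. The reference was a commercial universal mouse RNA, a pool made from cell lines. Wild type testis of 15 day animals was compared with wild type adult testis on 4 arrays, and testis of Spo11 knockout animals with wild type testis on 4. Spo11 makes the DNA breaks of meiotic recombination, and without it male germ cells are lost during meiosis, while at 15 days the testis has not yet made spermatids. No probe of the platform annotation was named Spo11, so the knockout was not checked on the targeted gene. The labels give no strain, no age beyond 15 day and adult, no number of animals and no pooling. A p-value here covers the spread from array to array and no more, and that spread may be technical. An array held values for between 6452 and 14012 probes, and the lowest number was on replicate 1 of ovary against testis; the number of arrays limits the precision.

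Values are log2 ratios after centring every array on its median. Errors are standard errors from 1 limma model of all 21 arrays; a gene was called where its p, adjusted over all tested genes, was under 0.05. The labels do not say which source is on top of the ratio. The first source named in each comparison here (ovary, testis against the reference, 15 day, knockout) is the likely numerator, so every direction below is likely rather than settled, and turning the sign would turn them all. The basis is the germ cell markers. Of 8 tested genes of meiotic germ cells, 6 were lower in ovary than in testis and 6 were higher in testis than in the reference, with none the other way. Of 3 tested haploid germ cell genes, 2 (Tekt2 and Cetn4) were lower at 15 days and 2 in the knockout, with none higher. The third, Oaz3, went the other way in ovary against testis, at 0.79 ± 0.27, and more so in testis against the reference, at -2.20 ± 0.32, where Tekt2 and Cetn4 were higher. In ovary against the reference 3 of 4 granulosa genes were higher, and 5 of 5 steroid synthesis genes, which do not mark the ovary, since 4 of 5 were also higher in testis than in the reference. The granulosa genes mark it only in part, since Gata4 and Nr5a1 are also counted as Sertoli genes below. In testis against the reference 1 of the 4 was higher, Gata4 at 0.93 ± 0.24, and 1 lower. Of the oocyte genes, Gdf9 was at 1.0 ± 0.35 and Padi6 at 1.76 ± 0.26 in ovary against testis, while Zp2, of the egg coat, was at 0.30 ± 0.23 there and did not pass (adjusted p = 0.25), and at 1.25 ± 0.20 in ovary against the reference. A rise of Gdf9 and Padi6 was not particular to the ovary. In the knockout testis they were also higher, at 0.90 ± 0.35 and 1.02 ± 0.26, and Zp2 was lower, at -1.16 ± 0.23. In whole tissue, fewer cells of a type and less RNA per cell cannot be told apart.

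In the ovary, Inha, Wnt4 and Ptch1 were higher than in the testis, by 7.22-fold, 4.86-fold and 3.06-fold. Amhr2 was lower, by 2.14-fold, and Dhh was near 0. At 15 days Wnt4, Dhh, Ptch1 and Inha were higher than in adult testis, and in the Spo11 knockout Amhr2, Inha, Dhh and Ptch1 were higher than in wild type. In ovary against testis 4 of the 5 genes were called, where 59% of all tested genes were: 3 higher (22.4% of all tested genes) and 1 lower (36.5%). In testis against the reference 3 were called (61.4% of all tested genes), all 3 higher (35.5%), and in ovary against the reference 4 (22.9%), all 4 higher (9.54%). With all arrays scaled to 1 spread, 46% of all tested genes were called in ovary against the reference, 18.7% higher, and 5 of the 5. At 15 days 4 of the 5 were called (46.1% of all tested genes), 4 higher (18%) and 0 lower (28.1%). In the knockout 4 were called (57.2%), 4 higher (26.7%) and 0 lower (30.5%).

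**Figure D1:**
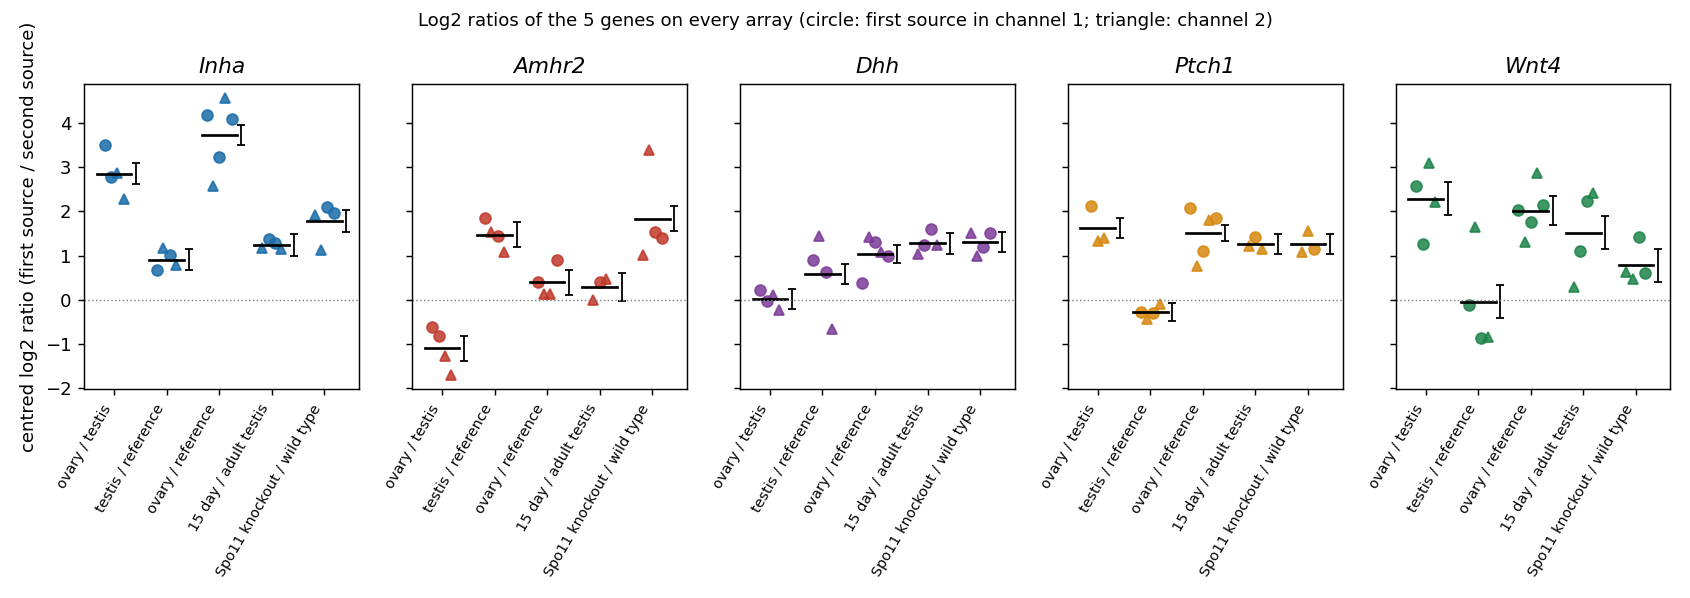
Centred log2 ratio (y axis) of each gene on every array, by comparison (x axis); circles and triangles mark arrays with the first source in channel 1 or 2, horizontal lines the fitted mean and bars 1 standard error of the fit. Inha lies above 0 on every array and is highest in ovary against the reference, at 3.73, whereas Amhr2 lies below 0 on all 4 arrays of ovary against testis.

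Upstream sequence is shown for the 3 genes whose RefSeq window lies nearest the outer end of the gene. Between ovary and testis these were one lower (Amhr2), one near 0 (Dhh) and one higher (Wnt4). Each run is the 250 bases before the transcript start in RefSeq, build GRCm38.p6, written 5′ to 3′ on the strand of the gene. Amhr2 lies at chr15:102445117-102445366 (+), Dhh at chr15:98898541-98898790 (-) and Wnt4 at chr4:137277385-137277634 (+). Capitals mark every match, on either strand, to the motifs searched. These were the SF-1 type sites AAGGTCA and AAGGCCA, the GATA sites AGATAA and AGATAG as well as TGATAA and then TGATAG, the CRE core written CGTCA, the Gli core given by CCACCCA and the GC box spelled GGGCGG.
Amhr2: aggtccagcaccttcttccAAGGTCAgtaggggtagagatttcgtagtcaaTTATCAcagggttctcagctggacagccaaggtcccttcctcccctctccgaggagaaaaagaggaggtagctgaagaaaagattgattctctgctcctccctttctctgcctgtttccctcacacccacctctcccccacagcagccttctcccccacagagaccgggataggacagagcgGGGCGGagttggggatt
Dhh: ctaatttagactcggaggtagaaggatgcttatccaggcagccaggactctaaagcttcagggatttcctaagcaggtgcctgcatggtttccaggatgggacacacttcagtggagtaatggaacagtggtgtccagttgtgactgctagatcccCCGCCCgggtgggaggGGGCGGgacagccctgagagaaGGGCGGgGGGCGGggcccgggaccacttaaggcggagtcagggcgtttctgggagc
Wnt4: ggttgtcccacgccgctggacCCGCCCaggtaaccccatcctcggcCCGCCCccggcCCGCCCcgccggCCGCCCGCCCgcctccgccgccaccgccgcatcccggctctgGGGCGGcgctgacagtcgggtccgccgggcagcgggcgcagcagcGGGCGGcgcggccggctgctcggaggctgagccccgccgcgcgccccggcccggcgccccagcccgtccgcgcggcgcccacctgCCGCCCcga
The run of Amhr2 held 1 AAGGTCA, beginning 231 bases before the start, 1 TGATAA on the opposite strand at 199 and 1 GGGCGG at 17. Of 32851 such windows, 9.09% held an SF-1 type site of either spelling, 26.5% a GATA site and 32.7% a GC box. The window of Dhh held GGGCGG at 4 positions and that of Wnt4 at 8, some of them overlapping, and neither held any of the other motifs. The window of Wnt4 was 85.2% G and C, that of Dhh 59.6% and that of Amhr2 55.2%. CGTCA and CCACCCA, found in 17.8% and 8.11% of windows, were in none of the 3. A match is a run of letters and not a known site, and no match says only that these letters are absent from this window. The RefSeq start used for Amhr2 lies 365 bases inside the outer end of the annotated gene. The windows of Inha and Ptch1 lie further inside their genes, with starts 532 and 7725 bases from the outer end, and are not shown.

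Inha (chr1:75507077-75510366, GRCm38.p6) had the highest ovary ratios of the 5 genes. In ovary against testis its log2 ratio was 3.50, 2.78, 2.86 and 2.27 on replicates 1 to 4. In ovary against the reference it was 4.18, 2.56, 3.23, 4.57 and 4.09, and in testis against the reference 0.68, 1.16, 1.02 and 0.78. All of these lie above 0, and the lowest value of ovary lies above the highest of testis. The fitted ratio in ovary against testis was 2.85 ± 0.25 (n = 4 arrays, adjusted p = 4.30e-09), the 13th highest of 4465 tested genes. In ovary against the reference it was 3.73 ± 0.22 (13.2-fold, n = 5, adjusted p = 7.94e-11), the 7th highest, and in testis against the reference 0.91 ± 0.25 (1.88-fold, n = 4, adjusted p = 0.00299). With all arrays scaled to 1 spread, the ovary against reference ratio was 5.65, and those of Ptch1 and Dhh rose likewise, to 2.31 and 1.59. The inhibin alpha message was thus above the reference in both gonads, by more in ovary.

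In the testis comparisons Inha was above 0 on every array too. At 15 days against adult its log2 ratio was 1.18, 1.37, 1.28 and 1.15, the tightest set of any of the genes with 4 arrays, with a standard deviation of 0.10. The fit gave 1.25 ± 0.25 (2.37-fold, n = 4, adjusted p = 2.94e-04), with an error that pools the spread of the gene over all comparisons. In the Spo11 knockout it was 1.91, 1.13, 2.10 and 1.95, with replicate 2 the lowest, and the fit gave 1.77 ± 0.25 (3.42-fold, n = 4, adjusted p = 3.56e-06).

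Amhr2 (chr15:102445002-102454640) differed from Inha in its direction between the gonads. Its log2 ratio in ovary against testis was -0.61, -0.81, -1.27 and -1.71, below 0 on all 4 arrays. In testis against the reference it was 1.85, 1.53, 1.43 and 1.08, and in ovary against the reference 0.40, 0.12, 0.14 and 0.91 on replicates 1, 2, 4 and 5, with no value on replicate 3. The lowest testis value lies above the highest ovary value. The ratio in ovary against testis was -1.10 ± 0.28 (n = 4, adjusted p = 0.00203) and that in testis against the reference 1.47 ± 0.28 (2.78-fold, n = 4, adjusted p = 1.26e-04). In ovary against the reference the value was 0.39 ± 0.28 (n = 4, adjusted p = 0.340; interval -0.19 to 0.97), which passed the threshold only with all arrays scaled to 1 spread, at 0.62 and adjusted p = 0.0453; over the tested alternatives the adjusted p ran from 0.0453 to 0.355. The receptor's message was the only one of the 5 that was lower in ovary than in testis.

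In the knockout Amhr2 was higher on all 4 arrays, with its widest spread. The log2 ratio was 1.02, 3.39, 1.54 and 1.39, so that replicate 2, the lowest array of Inha, was the highest here by far. The fit gave 1.84 ± 0.28 (3.57-fold, n = 4, adjusted p = 1.47e-05), and without replicate 2 the ratio was 1.32 and still passed. Its mean was the highest of the 5 through that array alone: without it Inha was at 1.99 and Dhh at 1.41, both above Amhr2. At 15 days it was -0.01, 0.40 and 0.47 on replicates 1, 3 and 4, with no value on replicate 2. The fitted 0.29 ± 0.32 (n = 3, adjusted p = 0.478; interval -0.38 to 0.95) did not pass.

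Dhh (chr15:98881615-98898562), the hedgehog ligand of the testis, did not pass the threshold between the gonads. In ovary against testis the log2 ratio was 0.23, -0.02, 0.10 and -0.23, on both sides of 0, and the fit gave 0.02 ± 0.23 (n = 4, adjusted p = 0.946; interval -0.46 to 0.50). Against the reference it was 0.39, 1.41, 1.31, 1.09 and 0.98 in ovary, all above 0, and 0.89, 1.44, 0.63 and -0.66 in testis, where replicate 4 alone was below 0. These sets overlap. The ovary ratio was 1.04 ± 0.21 (2.05-fold, n = 5, adjusted p = 7.84e-04). The testis ratio, 0.58 ± 0.23 (n = 4, adjusted p = 0.0349), rests on few arrays. It did not pass without replicate 1, 2 or 3 (0.47, 0.29 and 0.56), with all arrays scaled to 1 spread (0.38) or in a fit on its own arrays (adjusted p = 0.202), and without replicate 4 it was 0.99. The indirect ovary to testis ratio, from the arrays against the reference, did not pass at 0.46 (adjusted p = 0.228), but did with all arrays scaled to 1 spread (1.21, adjusted p = 0.00499) and without testis against reference replicate 2 (0.75, adjusted p = 0.0467). The pair of testis arrays in run 3 averaged -0.02, and array runs are the groups into which the numbers in the array titles fall.

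Dhh was higher in both testis comparisons, on every array. At 15 days its log2 ratio was 1.03, 1.23, 1.60 and 1.23, and the fit gave 1.27 ± 0.23 (2.42-fold, n = 4, adjusted p = 1.15e-04). In the knockout it was 1.51, 0.99, 1.20 and 1.52, and the fit gave 1.31 ± 0.23 (2.47-fold, n = 4, adjusted p = 5.74e-05). The values of both comparisons cover the same range.

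Ptch1 (chr13:63508328-63573460), the receptor, was higher in ovary than in testis, unlike the ligand Dhh. The log2 ratio in ovary against testis was 2.12, 1.33 and 1.39 on replicates 2 to 4, with no value on replicate 1. Against the reference it was 2.07, 0.77, 1.10, 1.80 and 1.84 in ovary and -0.28, -0.44, -0.29 and -0.09 in testis, so that all ovary values lay above all testis values. The fit gave 1.61 ± 0.23 in ovary against testis (n = 3, adjusted p = 7.24e-06) and 1.52 ± 0.18 in ovary against the reference (2.86-fold, n = 5, adjusted p = 4.61e-06). The testis value of -0.28 ± 0.20 (n = 4, adjusted p = 0.235; interval -0.69 to 0.14) did not pass, although all 4 arrays were below 0.

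In testis, Ptch1 and Dhh had nearly equal ratios at 15 days and in the knockout. For Ptch1 the log2 ratio at 15 days was 1.21, 1.42 and 1.15 on replicates 1, 3 and 4, and in the knockout 1.09, 1.56 and 1.15 on replicates 1 to 3. The fits gave 1.26 ± 0.23 (2.39-fold, n = 3, adjusted p = 1.84e-04) and 1.27 ± 0.23 (2.41-fold, n = 3, adjusted p = 1.12e-04). All 6 values were above 1.

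Wnt4 (chr4:137277635-137299501) had, after Inha, the highest ratio in ovary against testis, at 2.58, 1.25, 3.08 and 2.21 on the log2 scale. In ovary against the reference it was 2.03, 1.30, 1.75, 2.86 and 2.14. In testis against the reference it was -0.11, 1.64, -0.86 and -0.83, and replicate 2 alone was above 0 and reached into the ovary values. The fit gave 2.28 ± 0.37 in ovary against testis (n = 4, adjusted p = 1.97e-05) and 2.02 ± 0.33 in ovary against the reference (4.04-fold, n = 5, adjusted p = 1.14e-04). The testis value was -0.04 ± 0.37 (n = 4, adjusted p = 0.935; interval -0.81 to 0.73), and -0.60 without replicate 2. Run by run, the ovary values lay above the testis values in run 3 (means 1.67 and -0.85, 2 arrays each). They did so too in run 4 (1.75 and -0.11, 1 array each) and in run 5 (2.50 and 1.64, 2 arrays and 1), where testis replicate 2 lies. The share of all tested genes with such a split was not counted, and each run holds few arrays.

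At 15 days the log2 ratio of Wnt4 was 0.30, 1.11, 2.24 and 2.41. Replicates 1 and 2, in array run 2, averaged 0.71 and replicates 3 and 4, in run 5, averaged 2.33; each run held both channel orders. The fitted 1.52 ± 0.37 (2.86-fold, n = 4, adjusted p = 0.00209) is the mean over both pairs, of only 2 arrays each, and was the 40th highest of 4465 tested genes. For Inha, Dhh and Ptch1 the values of the same runs were 1.28 and 1.22, 1.13 and 1.42, and 1.21 (1 array) and 1.29. In the knockout Wnt4 was at 0.63, 0.47, 1.42 and 0.60, above 0 on all 4 arrays. The fitted 0.78 ± 0.37 (n = 4, adjusted p = 0.0769; interval 0.01 to 1.55) did not pass; it did in a fit on these arrays alone (adjusted p = 0.0228) and with values as deposited (0.88, adjusted p = 0.0462). Over its tested alternatives the adjusted p ran from 0.0228 to 0.115.

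The ovary to testis ratio could be had a second time, as ovary against the reference minus testis against the reference, on 9 arrays that share none with the direct comparison. The labels do not say whether both sets of arrays used the same ovary and testis RNA. A likeness of the direct and indirect ratios may therefore be technical only. The indirect log2 ratio was 2.82 ± 0.33 for Inha (adjusted p = 8.46e-07), 2.06 ± 0.50 for Wnt4 (adjusted p = 0.00190) and 1.79 ± 0.26 for Ptch1 (adjusted p = 2.63e-05). For Amhr2 it was -1.08 ± 0.39 (adjusted p = 0.0299), and for Dhh 0.46 ± 0.31 (adjusted p = 0.228; interval -0.18 to 1.10). So 4 of the 5 genes were called (46.4% of all tested genes), 3 higher (17.6%) and 1 lower (28.7%), each in the direction of its direct ratio. The call of Amhr2 is the weakest. It did not pass without testis against reference replicate 1 or 2 or without ovary against reference replicate 1, 2 or 4, at values between -1.08 and -0.95 and adjusted p up to 0.0804, or with all arrays scaled to 1 spread (-0.59, adjusted p = 0.183). With array run as a fixed term over these 9 arrays, chosen after seeing the data, the differences were 2.70 for Inha, 1.85 for Wnt4, 1.76 for Ptch1, -0.999 for Amhr2 (adjusted p = 0.0156) and 0.39 for Dhh (adjusted p = 0.379). Dhh was higher in ovary in runs 3 and 4, by 0.92 and 0.42, and lower in run 5, at -0.41. On the arrays against the reference, taken without regard to run, ovary and testis values did not overlap for 3 of the 5 genes (39.7% of all tested genes): 2 with ovary above testis, which 13.9% of all tested genes showed, and 1 with ovary below testis, which 25.9% showed.

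**Figure D2:**
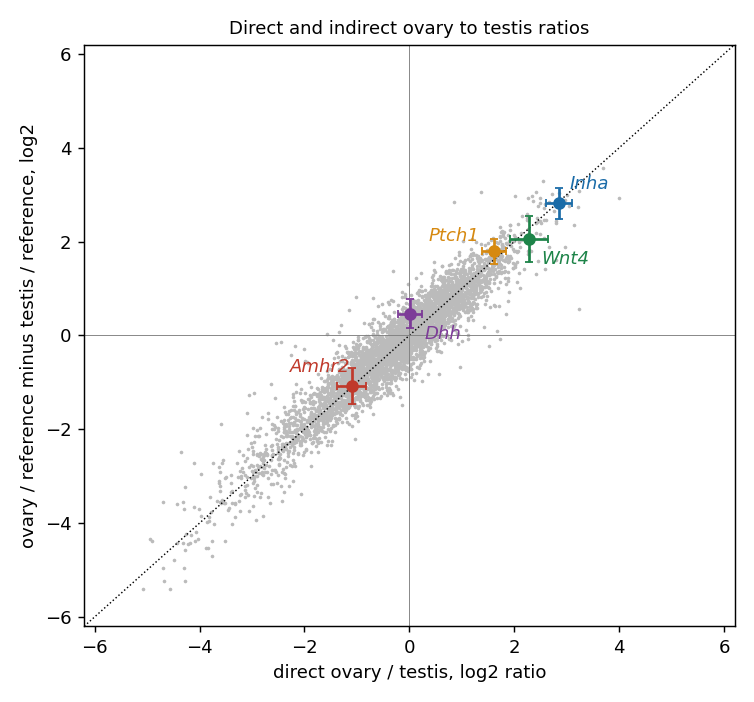
Direct ovary to testis log2 ratio (x axis) against the indirect ratio through the reference RNA (y axis) for the 4465 tested genes (grey) and the 5 genes (colour, bars 1 standard error of the fit); the dotted line marks equality. Inha, Wnt4 and Ptch1 lie in the upper right at 2.85, 2.28 and 1.61 on the x axis, and Amhr2 in the lower left at -1.10.

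Direct minus indirect, the differences were between -0.44 ± 0.38 for Dhh (interval -1.24 to 0.36) and 0.22 ± 0.62 for Wnt4 (interval -1.06 to 1.51), and that of Inha was 0.04 ± 0.41. By limma 0 of the 5 were called, and 0 had an unadjusted p under 0.05. Of all tested genes 0% were called, and 74 had an unadjusted p of less than 0.05. Scaling all arrays to 1 spread, however, called 30 genes with Inha among them, at -2.52 (adjusted p = 0.0163). The median absolute deviation of the ovary against reference arrays, between 0.504 and 0.771, was lower than that of the testis against reference arrays, between 0.904 and 1.54, so that this scaling enlarges the first and shrinks the second.

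The effect in the knockout was then set against that at 15 days, in a comparison of both effects; the labels do not say whether the wild type testes of the knockout arrays were adult, or the same RNA. By limma, 0 of the 5 genes were called in the difference, 1 had an unadjusted p under 0.05, and of all tested genes 2.4% were called, 2.04% with the higher ratio in the knockout. That gene was Amhr2, which was 1.55 ± 0.42 higher in the knockout than at 15 days (2.92-fold, interval 0.67 to 2.43, unadjusted p = 0.00159, adjusted p = 0.0582). It passed with values as deposited (1.62, adjusted p = 0.0396) and without knockout replicate 1 (1.82, adjusted p = 0.0331). It also passed with array run as a random block (adjusted p = 0.0384). There the estimated run correlation was negative (-0.0354), which makes the error smaller. That block cannot adjust this difference for run, since all knockout arrays share 1 run. Without knockout replicate 2, the highest array, the difference of Amhr2 was 1.03 (adjusted p = 0.20). For the other genes the differences were 0.53 ± 0.35 for Inha (interval -0.19 to 1.25), 0.03 ± 0.32 for Dhh (interval -0.64 to 0.71), 0.01 ± 0.32 for Ptch1 (interval -0.67 to 0.68) and -0.74 ± 0.52 for Wnt4 (interval -1.82 to 0.35). These intervals span 0 and, for Wnt4, also a difference of more than 3-fold. The knockout arrays all lie in array run 1, which holds no other comparison, so that run and knockout cannot be told apart.

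**Figure D3:**
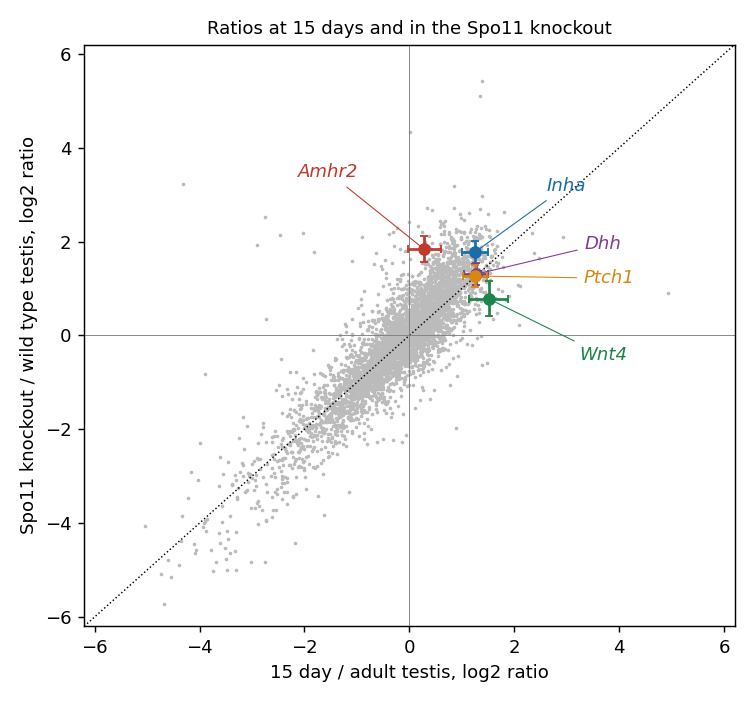
Log2 ratio at 15 days against adult testis (x axis) and in testis of the Spo11 knockout against that of wild type (y axis) for all tested genes (grey) and the 5 genes (colour, bars 1 standard error of the fit); the dotted line marks equality. Dhh and Ptch1 lie on the line near 1.27, and Amhr2 lies above it, at 0.29 and 1.84.

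Other genes of the 3 pathways were taken from lists that leave out the 5 genes. In the fit described above, their counts stand beside the share of all tested genes called in the same direction. No pathway list median given here changed its sign with values as deposited, with another centring or with all arrays scaled to 1 spread. Of 54 listed genes of the TGF-beta, inhibin, activin and AMH pathways only 10 were tested, which left out AMH itself and the activin subunits. In ovary against testis 5 of the 10 rose (22.4% of all tested genes) and 2 fell (36.5%), with a median of 0.70, where the median of all tested genes was -0.18. Id2, an inhibitor of transcription factors that BMP signals induce, was at 1.75 ± 0.16 and Ltbp1, which anchors latent TGF-beta in the matrix, at 1.20 ± 0.23. The BMP receptor Bmpr1a was at -1.17 ± 0.22 and Smurf2, a ubiquitin ligase that acts on the receptors and their Smads, at -0.52 ± 0.19. In the knockout 4 rose and 2 fell (26.7% and 30.5% of all tested genes; median 0.13, all tested genes -0.04), so that the 6 of 10 called lie near the 57.2% of all tested genes, with Ltbp1 at 1.13 ± 0.23 and the signal transducer Smad1 at -1.20 ± 0.32. At 15 days 2 rose and 1 fell (18% and 28.1% of all tested genes; median 0.16, all tested genes -0.07): Id2 at 0.97 ± 0.16, the shared Smad4 at 0.67 ± 0.24 and Bmpr1a at -0.48 ± 0.19. The call of Bmpr1a was lost with values as deposited and with centring on the tested probes. Against the reference, 2 rose and 5 fell in testis (35.5% and 25.9% of all tested genes), with Id2 at -1.96 ± 0.16 and Tgif1, a corepressor of Smads, at -0.99 ± 0.16. In ovary against the reference 2 rose and 1 fell (9.54% and 13.4%), with Smad1 at 0.85 ± 0.25 and Smurf2 at -0.91 ± 0.15; with all arrays scaled to 1 spread 3 rose and 3 fell.

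Of 29 listed hedgehog genes 8 were tested. In ovary against testis all 8 passed (59% of all tested genes), 2 higher (22.4%) and 6 lower (36.5%), with a median of -0.65. The higher ones were Gas1, a co-receptor of hedgehog ligands, at 1.88 ± 0.25, and Smo, the transducer that Ptch1 holds inactive, at 1.16 ± 0.27. The lowest were the kinase Stk36 at -2.90 ± 0.28 and Btrc, a subunit of a ubiquitin ligase, at -1.81 ± 0.21. Stk36 also serves motile cilia, and Btrc acts in several pathways. The kinesin subunit Kif3a at -1.51 and Ift88 at -0.51 belong to the assembly of cilia and flagella. At 15 days 1 rose and 4 fell (18% and 28.1% of all tested genes; median -0.57), with Gas1 at 0.93 ± 0.25 and Stk36 at -2.57 ± 0.28, and in the knockout 0 rose and 5 fell (26.7% and 30.5%; median -0.67), with Stk36 at -3.34 ± 0.28 and Btrc at -1.83 ± 0.21. With another centring or with all arrays scaled to 1 spread 4 or 5 of the 8 were lower in ovary than in testis, and the median kept its sign. By limma 5 of 8 in testis (35.5% of all tested genes) and 0 of 8 in ovary (9.54%) were higher than the reference. In testis Stk36 was at 3.24 ± 0.28 and Btrc at 2.01 ± 0.21. In each 1 gene, Gas1, was lower (25.9% of all tested genes in testis, 13.4% in ovary), at -2.43 ± 0.25 and -0.86 ± 0.23. The ratios of Dhh and Ptch1 in the testis comparisons thus had the opposite sign to the median of the list.

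Of 74 listed Wnt genes 13 were tested, and none of them was another Wnt ligand. In ovary against testis 7 rose and 2 fell (22.4% and 36.5% of all tested genes; median 0.59): the corepressor Tle5 at 1.98 ± 0.24 and beta-catenin, Ctnnb1, the effector of the canonical pathway, at 1.93 ± 0.23 were highest, and the casein kinase Csnk1a1, which primes beta-catenin for decay, at -1.22 ± 0.15 and the scaffold Axin1 at -0.81 ± 0.24 lowest. In the knockout 7 rose and 3 fell (26.7% and 30.5%; median 0.75), with Tle5 at 2.07 ± 0.24, the beta-catenin antagonist Apc at 1.93 ± 0.24, Csnk1a1 at -1.51 ± 0.15 and the secreted Dkk3 at -0.79 ± 0.21. At 15 days 5 rose and 2 fell (18% and 28.1%; median 0.26), with Apc at 1.47 ± 0.24 and Ctnnb1 at 1.26 ± 0.23 on one side and Csnk1a1 at -1.20 ± 0.15 and Dkk3 at -0.61 ± 0.21 on the other. Against the reference 2 rose and 8 fell in testis (35.5% and 25.9% of all tested genes). The casein kinases Csnk1a1, at 1.29 ± 0.15, and Csnk1d, at -1.59 ± 0.17, went in opposite directions there. In ovary 3 rose and 1 fell (9.54% and 13.4%), and Rspo3, a secreted amplifier of Wnt signals, was at 0.90 ± 0.23. With all arrays scaled to 1 spread 4 rose and 4 fell in ovary against the reference.

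**Figure D4:**
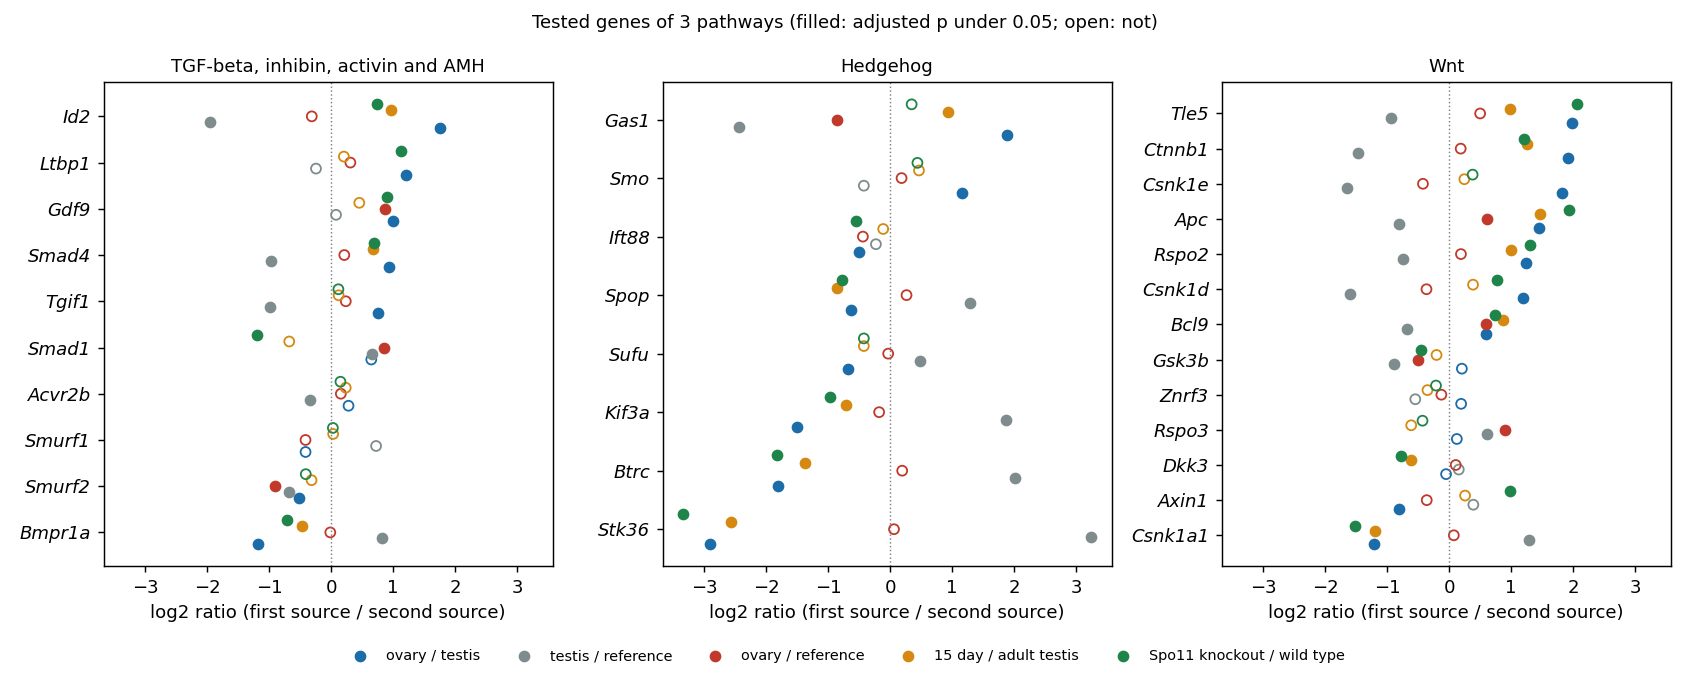
Fitted log2 ratio (x axis) of the tested genes of 3 pathway lists (y axis), 1 point per comparison, filled where the adjusted p was under 0.05. In the hedgehog list Stk36 and Btrc are at -2.90 and -1.81 in ovary against testis, opposite to Gas1 and Smo at 1.88 and 1.16.

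Markers of cell types also changed in these comparisons, some in the direction of the 5 genes and some against it. Their part in these results was not tested. Their counts are to be read against the shares of all tested genes given above. In the knockout, 7 of 8 tested Sertoli genes rose and 0 fell (median 1.58), among them the protease Ctsl at 2.06 ± 0.17. All 5 steroid synthesis genes rose (median 1.93), as did 4 of 4 macrophage genes (median 1.49) 3 of 4 smooth muscle and peritubular genes, of which 0 fell (median 1.05), and 6 of 11 stroma genes, of which 3 fell (median 1.07), while 5 of 8 meiotic germ cell genes fell (median -0.54). At 15 days 3 of 8 Sertoli genes rose and 0 fell (median 0.60), with Wt1 at 0.85 ± 0.23, 6 of 11 stroma genes rose and 2 fell (median 1.02), and 3 of 4 smooth muscle and peritubular genes rose and 0 fell (median 1.30). Of the steroid synthesis genes 2 of 5 fell at 15 days and 0 rose (median -0.34), Cyp17a1 at -2.91 ± 0.35 and Cyp11a1 at -2.02 ± 0.36. At that age 2 of 4 macrophage genes rose and 0 fell (median 0.67), and 4 of 8 meiotic germ cell genes fell and 1 rose (median -0.43). In ovary against testis 5 of 8 Sertoli genes rose and 2 fell (median 0.80), Cst12 at -2.48 ± 0.57 and Rhox5 at -1.65 ± 0.30. There 3 of 4 granulosa genes (median 1.10) and 4 of 4 smooth muscle genes (median 1.90) rose, and 8 of 11 stroma genes rose and 2 fell (median 0.98). Steroid synthesis genes rose in 4 of 5 cases (median 1.60) and macrophage genes in 3 of 4 (median 1.15), and 0 fell in either list. The rise of granulosa genes was not particular to the ovary. In the knockout 3 of 4 rose and 0 fell (median 1.14), and at 15 days 1 of 4 rose and 0 fell (median 0.46). The granulosa gene Ccnd2 has 2 probes, which differed in ovary against testis, at -0.085 and 2.69. The granulosa list shares Gata4 and Nr5a1 with the Sertoli list, and the steroid synthesis list also holds Nr5a1. Of the endothelial and Schwann cell lists 0 genes were tested, and Schwann cells also make Dhh.

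The patterns of the 5 genes over the comparisons were compared with each other and with those of all tested genes. By the root mean square difference between their 5 fitted ratios, the closest pair was Ptch1 and Wnt4, at 0.46, and the most distant Inha and Amhr2, at 2.37. Among all other tested genes, those nearest to Inha were Mgp (0.42), Pcsk5 (0.46), Cntn4 and Rgs2 (0.50 each), where the median gene lay 2.51 away. Nearest to Amhr2 were Slc30a2 (0.28), Micu2 (0.35), Rad51ap2 (0.36) and Wipf3 (0.46), with the median gene at 1.39. Dhh had the closest neighbours of all: Lsr (0.10), Adgrl1 (0.13), Smim1 (0.21) and Marcksl1 (0.26), with the median gene at 1.23. Nearest to Ptch1 were 4632427E13Rik (0.18), Rrs1 (0.24), Clk1 (0.26) and Dag1 (0.27), and nearest to Wnt4 were the growth factor Igf1 (0.19), Foxo1 and Rrs1 (0.47 each) and Dag1 (0.51). Igf1 was at 2.08 in ovary against testis, 1.37 at 15 days and 0.73 in the knockout, where Wnt4 was at 2.28, 1.52 and 0.78. Across arrays, Pearson's r was 0.68 between Inha and Ptch1 (18 arrays), 0.66 between Inha and Wnt4 (21), 0.61 between Ptch1 and Wnt4 (18) and -0.45 between Inha and Amhr2 (19). These arrays fall into 5 comparisons and share RNA sources, so r describes mostly the differences between comparisons.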

How the data were processed

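The authors' deposited table gives 1 value per probe and array for 21 arrays with 2 channels. Its values were read as log2 ratios that the authors had centred and turned to one direction before they deposited them. Both signs occur, as in log ratios, but the base of the logarithm is a likely reading only. The largest size was 16.7, and how such values arose is not known. The unit, background correction, dyes, scanner and software are not given in the sources used here. The deposited centring differed: 15 arrays had a median of 0, and the 6 of array runs 1 and 2 a median between 0.06 and 0.13. The mean of those 6 lay between -0.0014 and 0.0035, and that of the 15 between -0.115 and 0.159. By these values the 6 were centred on the mean and the 15 on the median. Without intensities, probes near background could not be set apart. Arrays of opposite channel order correlated at r between 0.547 and 0.958 within a comparison, so none was turned; testis and ovary against the reference, of one order, correlated at 0.247 to 0.389.

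Each array was centred on its median. Probes with a value on at least 3 arrays of every comparison were kept (7561 of 16128), named through the platform annotation and updated by gene identifier to RefSeq symbols (9496 of 9604 probes with 1 symbol matched), and averaged per symbol (4465 genes). Of the other probes, 213 had several symbols and 6311 were not listed, and none of these entered the gene fit. limma 3.58.1 in R 4.3.3 fitted 1 coefficient per comparison over all arrays (lmFit, eBayes), with Benjamini-Hochberg adjustment over the 4465 genes at 0.05, and intervals are 95% intervals of the fit. Differences between comparisons are contrasts of that fit. A shift common to all genes cannot be seen, since ratios are relative to each array's median.

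The genes, lists and tests were chosen with earlier results of these data known. Named besides the 5 genes are, per pathway list and comparison, up to 2 called genes at each end, up to 2 per cell type list, the 4 genes nearest in pattern to each of the 5, and, chosen after their values were seen, Oaz3, Gdf9, Zp2, Padi6, Kif3a and Ift88. Replicates are numbered in accession order. Alternatives were the centring, a common spread, the filter, separate fits, channel order, array run, extreme values, the probe summary, eBayes settings and leaving out each replicate.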

Additional observations from a re-analysis of the deposited data

Results flagged for a closer look

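Replicate 3 stood apart in the knockout ratios of Wnt4. Its log2 ratio of 1.42 was far from the other 3, which lay between 0.47 and 0.63; without it the mean was 0.57. Of 21 sets of 4 or 5 arrays examined in this way this was the only 1, and chance marks about 1 in 20.

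For 4 of the 5 genes the ratio to the reference RNA differed between ovary and testis, by the contrast in limma. It did so for 46.4% of all tested genes. Ovary minus testis was 2.82 for Inha, -1.08 for Amhr2, 1.79 for Ptch1 and 2.06 for Wnt4 on the log2 scale. The call of Amhr2 was lost in 5 of 9 fits with a replicate left out. The direct arrays gave the same directions.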

How the results depend on the processing

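Over the alternatives 481 of 499 values were labelled unchanged. For tested values that means the same direction and the same side of the threshold. Values of 1 array run alone had no test. There it means within 1 standard deviation of the fitted ratio, without a change of sign in a called ratio. The filter, extreme values, probe summary, separate fits and eBayes settings could not move these ratios: each gene has 1 probe and no value beyond 10. With these only the p could change, so the count is no measure of stability. With a replicate left out, 224 of 255 values kept their direction and side. The ratio of Wnt4 in the knockout passed with values as deposited (0.88) and in a fit on its own arrays (0.78). The knockout minus 15 day difference of Amhr2 passed with values as deposited (1.62) and with array run as a random block (1.55; the estimated correlation was -0.0354). Centring on the tested probes, chosen after seeing the data, turned differences near 0: Inha direct minus indirect (-5e-04), and Dhh (-0.0075) and Ptch1 (-0.053) in knockout minus 15 day. Scaling all arrays to 1 spread changed the most. Dhh in testis against the reference (0.38) and Amhr2 in indirect ovary against testis (-0.59) no longer passed, while Amhr2 in ovary against the reference (0.62) and Dhh in indirect ovary against testis (1.21) did. The differences direct minus indirect of Inha (-2.52, past the threshold) and Wnt4 (-1.31), and knockout minus 15 day of Dhh (-0.30) and Ptch1 (-0.32), changed sign. Beyond the unequal spreads of the arrays, the cause was not tested. A fit on its own arrays left Dhh in testis against the reference at 0.58, not past the threshold; in run 3 alone it was at -0.015. In run 2 alone Amhr2 at 15 days was at -0.01, on 1 array.

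With a replicate left out, values ranged from 1.03 to 1.82 for Amhr2, from -0.048 to 0.14 for Dhh and from -0.14 to 0.095 for Ptch1 in knockout minus 15 day, from 0.29 to 0.99 for Dhh and from -0.60 to 0.23 for Wnt4 in testis against the reference, and from -0.05 to 0.10 for Dhh in ovary against testis. The ranges were -1.25 to -0.95 for Amhr2 and 0.049 to 0.75 for Dhh in indirect ovary against testis, and -0.26 to 0.25 for Inha, -0.18 to 0.18 for Amhr2 and -0.34 to 0.57 for Wnt4 in direct minus indirect. The indirect ratio of Dhh passed only without testis against reference replicate 2, at 0.75.

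Of all tested genes, 1024 were called in ovary against the reference, and 2056 with all arrays scaled to 1 spread. In knockout minus 15 day 107 were called, 51 with that scaling, 165 with probes that had 1 value in every comparison, and between 58 (without 15 day replicate 3) and 105 with a replicate left out. With probes on all arrays 2000 genes were tested, Amhr2 and Ptch1 not among them, and 48 were called there; 1286, 1319, 533, 1051, 1200 and 1060 were called in ovary against testis, testis and ovary against the reference, 15 day, knockout and indirect ovary against testis. Among the 7561 single probes these were 4400, 4517, 1672, 3309, 4157 and 3321. Arrays could not be paired by replicate, because the labels give no replicate numbers shared between comparisons. Arrays of both gonads against the reference share array runs, and with run as a fixed term there the 5 indirect ratios kept their direction and their side of the threshold.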
